A study of Homo sapiens with 6 samples.

Results

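The histone genes of human cells were examined as 1 group of 82 genes out of the 62252 genes with transcripts in the files. They were taken by name: protein-coding genes of the GENCODE annotation whose symbol starts with H1-, H2AC, H2BC, H3C or H4C and a digit, or with H2AZ, H2AX, H2AJ, H3-3 or MACROH2A. By that rule 69 members are replication-dependent genes (5 H1, 17 H2A, 19 H2B, 13 H3 and 15 H4), 3 are linker histones of the germ line or the oocyte (H1-6, H1-7 and H1-8) and 10 are replication-independent genes or variants. The rule uses names alone and no measured value.

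Histones are the proteins around which DNA is wound: H2A, H2B, H3 and H4 form the nucleosome core and H1 binds the linker DNA. Replication-dependent histone genes lie in clusters as many near-identical copies, are transcribed mainly in S phase, and give short mRNAs without introns whose 3′ end is a conserved stem-loop in place of a poly(A) tail. The stem-loop binding protein SLBP holds this end during processing, translation and decay. Replication-independent genes lie alone, mostly have introns, end in a poly(A) tail and supply variants such as H3.3, H2A.Z and macroH2A outside S phase.

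K562 is an established erythroid leukemia cell line. Cells grown in RPMI 1640 with fetal bovine serum were kept overnight with 10 µM 21H7, a cell-permeable iron chelator (the Chelator group, 3 libraries), or with the same volume of its solvent DMSO (the DMSO group, 3 libraries), and both groups were otherwise treated alike. The study asked how low iron availability changes the transcriptome, and RNA was selected for its poly(A) tail before paired-end sequencing. The series text names the libraries of a group biological replicates.

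The libraries held 78.6 M to 101 M estimated counts each, and 0.282% to 0.330% of them fell on histone genes. The erythroid markers fixed for K562 cells were present in every library, with a summed level of 12656 to 13936 TPM (counts per length, on a common scale for all libraries) in DMSO and 19521 to 20649 TPM in Chelator, whereas lymphocyte markers summed to 1.57 to 2.14 and 3.25 to 3.63 TPM and fibroblast markers to 0.541 to 0.696 and 1.67 to 2.16 TPM. Of the lymphocyte markers MS4A1 was at 0 in every library. Epithelial markers summed to 62.4 to 68.9 TPM in DMSO and 45.8 to 50.4 TPM in Chelator, nearly all of it EPCAM. The part of such markers in the results was not tested. Fragments averaged 257, 264 and 252 bases in the DMSO libraries but 218, 207 and 200 bases in the Chelator libraries. As these ranges do not overlap, the effect of fragment size cannot be told apart from that of the chelator. That matters for histone genes because they are short. Salmon's effective length, the number of positions at which a fragment can start, averaged 151 bases for H4C3 with DMSO but 200 bases with Chelator, which raises its expected count at the same level. Each change below is from a fit with this length as an offset unless said otherwise. Beside a gene named with its fitted change, the value without the offset is given where it changes direction, changes whether the gene passed or was called, or differs by over 1.5 times.

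The stem-loop is shown first because it sets the replication-dependent genes apart from nearly all others and because poly(A) selection acts on this end of the RNA. A stem-loop of 16 bases with 6 paired bases in each arm and a 4-base loop was found in annotated transcripts of 65 of the 82 members (79.3%), against 11 of 19909 other protein-coding genes (0.0553%). By family it was found in 5 of 5 H1, 15 of 17 H2A, 17 of 19 H2B, 12 of 13 H3 and 14 of 15 H4 genes. The sites below were read from GENCODE transcripts on GRCh38, 5′ to 3′ along the RNA as DNA letters, with the stem-loop in capitals, and belong to the most abundant gene of each family and to members that differ in arm or loop.
H1-2 (chr6:26055740-26055764, minus strand): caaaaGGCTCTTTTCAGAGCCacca
H2AC6 (chr6:26124664-26124689, plus strand): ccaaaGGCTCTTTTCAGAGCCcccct
H2AC20 (chr1:149887386-149887411, plus strand): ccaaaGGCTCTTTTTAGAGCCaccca
H2BC12 (chr6:27146361-27146386, minus strand): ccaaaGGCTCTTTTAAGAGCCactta
H3C10 (chr6:27810511-27810536, plus strand): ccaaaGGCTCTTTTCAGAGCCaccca
H4C14 (chr1:149833027-149833052, plus strand): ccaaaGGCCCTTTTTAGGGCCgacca
H4C3 (chr6:26104312-26104337, plus strand): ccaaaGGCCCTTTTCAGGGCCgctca
H2AX (chr11:119094893-119094918, minus strand): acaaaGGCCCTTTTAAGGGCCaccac
All H1, H2A, H2B and H3 genes with the site had the arm GGCTCT, whereas the 14 H4 genes had the arm GGCCCT. Of the 10 replication-independent genes H2AX alone carried the site, with the H4 arm and a TTTA loop, and it lies inside a longer transcript that goes on for 1024 bases in its main form. H2AX is known to be made in both ways, as a stem-loop mRNA and as a polyadenylated one. The loop was TTTC in most genes, TTTA in 8 replication-dependent genes and TTTT in the other 5. H2AC20, with the TTTT loop, and H2BC12, with TTTA, are described below.

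Most histone genes with a passing change fell. Of the 82 genes, 69 had a total above 10 counts and were tested, 2 of these (H2BC14 and H3C15) had no adjusted p, and 13 were too low to test, 5 of them at 0 in every library. In the DESeq2 Wald test over all 24542 genes with an adjusted p, 25 of 67 members fell at an adjusted p under 0.05 and 2 rose (H2AC25 and H2BC21), while 40 did not pass. Over all genes 18.3% fell and 19.5% rose by the same rule. Called lower, with an adjusted p under 0.05 and a log2 fold change under -1, were 9 members, against 2.6% of all genes, and called higher (over 1) was no member, against 8.18% of all genes. At an unadjusted p under 0.05, 28 members were lower and 5 higher, and edgeR's quasi-likelihood test called 8 lower and none higher. The median log2 fold change of the 67 members was -0.49 and that of all genes 0.02.

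All 9 called members were replication-dependent. Of 56 replication-dependent genes with an adjusted p, 22 fell and 2 rose, with a median log2 fold change of -0.58. Without the length offset 17 fell against 20.1% of all genes and 4 rose against 20.8%, and 6 were called lower against 2.46%, with a median of -0.38. The offset moved the fold change most where genes were shortest: the median shift was -0.36 over the 16 members with an effective length under 250 bases and -0.01 over the 13 members of 800 bases or more. Single genes of that last group moved as far, from -0.38 to 0.44, the highest being H2AZ2, against -0.45 to -0.27 in the shortest group. Of the 34 replication-dependent genes with a mean of at least 100 normalized counts and an adjusted p, 16 fell, 2 rose and 3 were called, with a median of -0.41, and without the offset 11 fell, 3 rose and none was called, with a median of -0.04. Genes that share under 20% of their 31-base words with any other expressed gene can be told from their copies by most reads: of 38 such replication-dependent genes 14 fell, 2 rose and 6 were called, with a median of -0.55. Centred on the mean change, which put the median of all genes at -0.20 in place of 0.02, 28 of the 56 genes fell and none rose, with a median of -0.79, while over all genes 26.8% fell and 11.9% rose. The germ line genes H1-6 and H1-7 had at most 15 counts in a library and did not pass, and H1-8 was at 0 throughout. Among all genes with an effective length under 350 bases in DMSO the median log2 fold change was -0.14 with the offset and 0.15 without it.

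**Figure D1:**
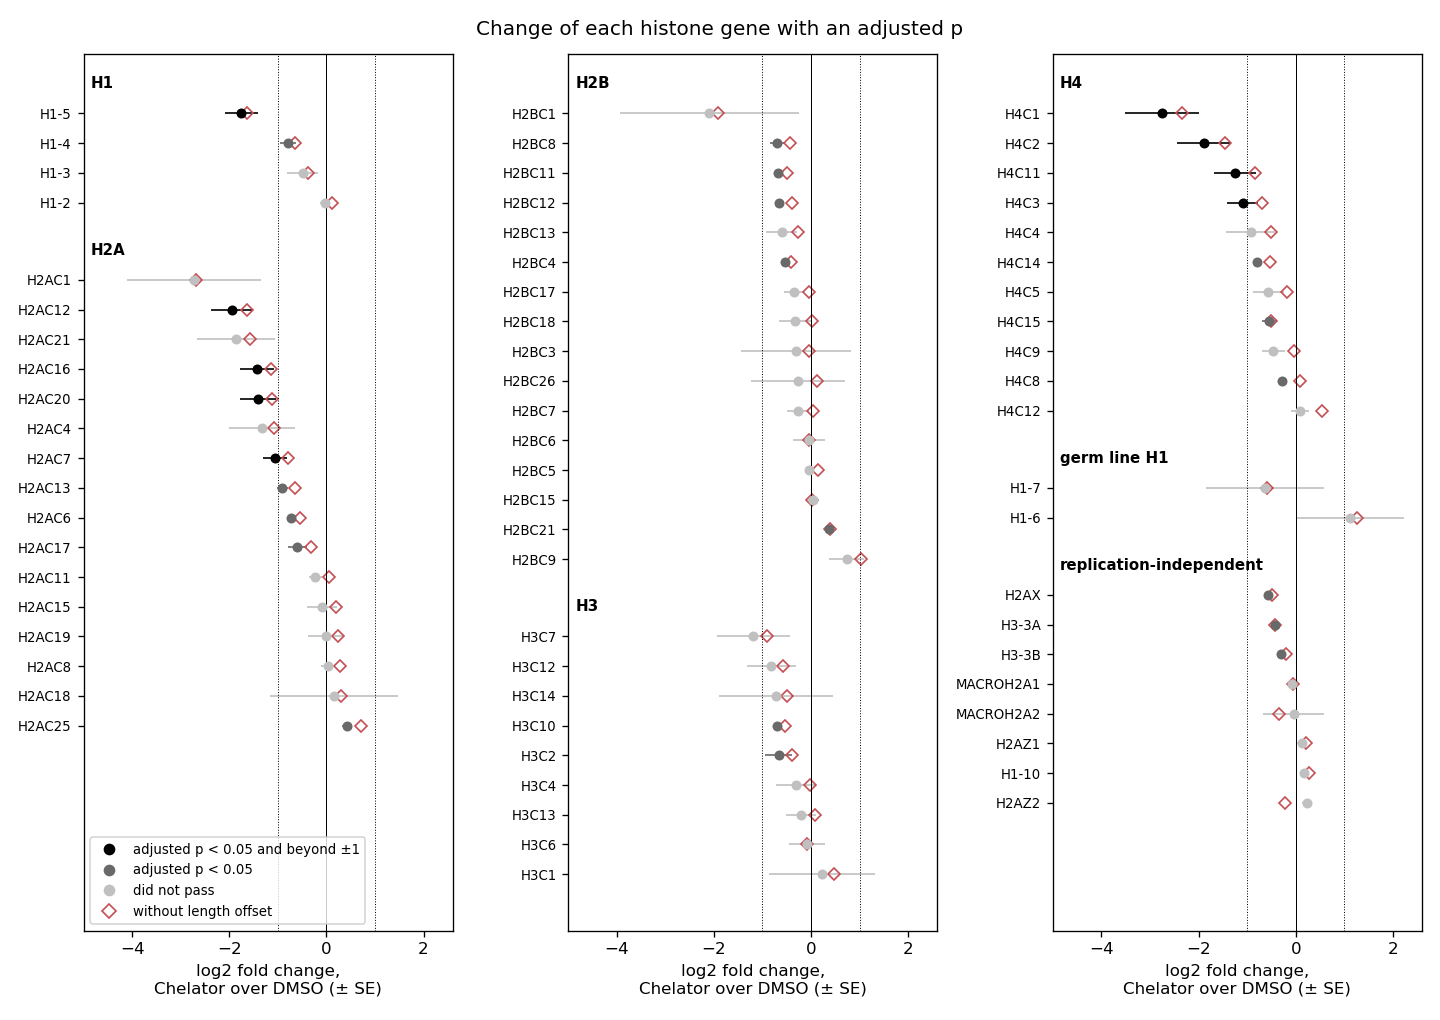
Log2 fold change (Chelator over DMSO, x axis) of 66 of the 67 histone genes with an adjusted p, by family, with the SE from DESeq2 as bars. Filled points are from the fit with the length offset and open diamonds from the fit without it; the diamonds lie to the right of the points for most short genes, and the 9 called members (black) are H1-5, 4 H2A and 4 H4 genes.

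Since reads of near-identical copies cannot be placed on 1 gene with certainty, the sum over each family gives a firmer level than single genes. All levels here are of RNA kept by poly(A) selection. A change in capture or tailing cannot be told apart from a change in total mRNA. Summed over the 69 replication-dependent genes the level was 3729, 3829 and 3471 TPM in DMSO and 2687, 2888 and 2839 TPM in Chelator, which is 23.7% less and without overlap. As CPM, counts scaled to the library total with no length term, the same sum was 1121 ± 62.6 with DMSO and 1063 ± 67.0 with Chelator (SD, n = 3), 5.13% less and with overlap. The size of the fall in this summed level thus depends on the length term.

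H3 and H2B fell furthest as families. H2B genes summed to 1940, 2017 and 1815 TPM in DMSO and 1251, 1311 and 1312 TPM in Chelator, 32.9% less, and H3 genes to 94.8, 104 and 85.9 TPM in DMSO and 52.0, 62.5 and 66.4 TPM in Chelator, 36.5% less. For H4 the sums were 260, 291 and 247 TPM and 186, 202 and 190 TPM, 27.5% less. These 3 families did not overlap between groups on either scale; in CPM they were 14.2%, 26.0% and 10.5% lower. H2A genes summed to 692, 730 and 677 TPM in DMSO and 556, 585 and 574 TPM in Chelator, 18.3% less, but their CPM were 3.48% lower with overlapping groups. The linker histone H1 stood apart, with 742, 686 and 647 TPM in DMSO and 642, 728 and 698 TPM in Chelator, 0.338% less, and 12.5% more in CPM, with overlap on both scales. The replication-independent genes summed to 3236 ± 73.4 TPM in DMSO and 2931 ± 155 TPM in Chelator (SD, n = 3), 9.42% less. No test was made of these sums, which describe the libraries.

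**Figure D2:**
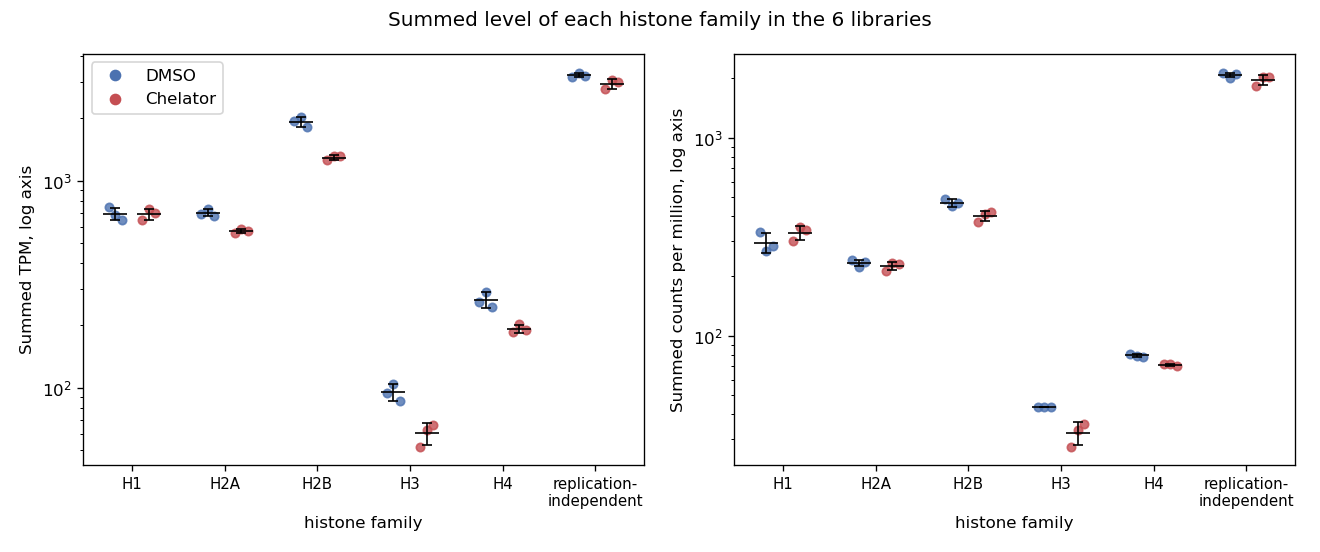
Summed level of each replication-dependent family and of the 10 replication-independent genes in each library, as TPM (left) and as CPM (right), both on log axes; points are libraries and black marks the mean ± SD of 3. H2B, H3 and H4 are lower in all 3 Chelator libraries in both panels, while H1 overlaps in both.

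H1 genes encode the linker histones that bind where DNA enters and leaves the nucleosome. Nearly the whole H1 pool in this poly(A)-selected RNA was H1-2, which held 98.5% of the family's TPM. Its level was 729, 671 and 635 TPM in DMSO and 635, 720 and 690 TPM in Chelator, so the groups overlapped (log2 fold change -0.03 ± 0.09 SE, DESeq2 adjusted p = 0.851, and 0.11 without the offset, adjusted p = 0.394). Once trends with GC content and length were taken out H1-2 passed lower, at -0.19 (adjusted p = 0.0341), and centred on the mean change it was at -0.24 and did not pass (adjusted p = 0.0693). H1-5 was lower in every Chelator library, at 2.43, 3.52 and 2.0 TPM in DMSO and 0.951, 0.726 and 0.700 TPM in Chelator. It was called (log2 fold change -1.75 ± 0.34 SE, DESeq2 adjusted p = 1.4e-06), and only 1.56% of its 31-base words occur in another expressed gene. H1-4 also fell, from 8.39, 9.09 and 7.32 TPM to 4.46, 4.76 and 5.43 TPM (log2 fold change -0.79 ± 0.17 SE, DESeq2 adjusted p = 2.2e-05), and was called once those trends were taken out, at -1.04. H1-3 was at 1.40 to 2.88 TPM and did not pass. With the offset alone, the H1 genes that fell were H1-4 and H1-5, both of low level.

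H2A genes encode the nucleosome's H2A subunit, and 7 of 16 with an adjusted p fell, 4 of them called, while 1 rose, against 18.3% lower, 2.6% called lower and 19.5% higher over all genes. Without the offset 6 fell, 3 of them called, and 1 rose. H2AC6, with 33.8% of the family's TPM, was at 271, 264 and 264 TPM in DMSO and 161, 166 and 164 TPM in Chelator. The groups were far apart and narrow (log2 fold change -0.73 ± 0.09 SE, DESeq2 adjusted p = 1.8e-16). H2AC25 went the other way, from 55.3, 55.9 and 49.8 TPM to 70.6, 71.1 and 79.7 TPM (log2 fold change 0.43 ± 0.10 SE, DESeq2 adjusted p = 6.0e-05), and its rise was larger without the offset, at 0.70. With GC content and length trends removed it was 0.14 and did not pass (adjusted p = 0.164), and centred on the mean change it was 0.22 and did not pass (adjusted p = 0.143).

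The called H2A genes were all of low level. H2AC16 was at 3.58, 6.01 and 3.58 TPM in DMSO and 1.5, 1.89 and 1.53 TPM in Chelator (log2 fold change -1.43 ± 0.35 SE, DESeq2 adjusted p = 2.2e-04). H2AC20, whose loop is TTTT, was at 3.36, 3.51 and 3.40 TPM and then at 1.02, 1.31 and 1.66 TPM (log2 fold change -1.40 ± 0.38 SE, DESeq2 adjusted p = 7.8e-04), and 35.6% of its 31-base words are shared, mostly with H2AC18 and H2AC19. Both sets of libraries were separate for each gene. H2AC12, with 46.1 mean normalized counts, was called at -1.95 ± 0.43 SE on the log2 scale (DESeq2 adjusted p = 3.0e-05); it had 66, 59.0 and 57 counts in DMSO and 23, 17 and 28 counts in Chelator. H2AC7 was at 7.18, 11.5 and 7.68 TPM in DMSO and 4.44, 4.8 and 3.55 TPM in Chelator (log2 fold change -1.05 ± 0.25 SE, DESeq2 adjusted p = 8.8e-05), and without the offset its change was -0.79, past the threshold on p but not called. Of its 31-base words 84.6% belong also to ENSG00000282988, an annotated readthrough gene that covers H2AC7 and H3C4 on the same strand and that did not pass (log2 fold change -0.06 ± 0.13 SE, DESeq2 adjusted p = 0.772, and -0.02 without the offset). Reads of H2AC7 and of that gene cannot be told apart over the shared stretch, and their summed normalized counts changed by -0.17 on the log2 scale.

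H2AC18 and H2AC19 are near-perfect copies, with 99.8% of the words of H2AC19 shared, and the assignment of reads between them swung from library to library. H2AC18 took 1032, 93.8 and 1902 counts in DMSO and 3236, 1154 and 242 counts in Chelator. Together the pair had 5427, 4564 and 4526 counts in DMSO and 6232, 7833 and 6363 counts in Chelator. In length-corrected normalized counts the pair was at 5669 ± 375 with DMSO and at 5770 ± 168 with Chelator (SD, n = 3), with overlap. In CPM it was 57.4 ± 2.93 and 72.3 ± 6.71 (SD, n = 3), without overlap.

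H2B genes encode the partner of H2A in the core dimer. H2BC12 was the most abundant replication-dependent histone gene and held 73.2% of the H2B TPM. It was at 1456, 1493 and 1350 TPM in DMSO and 918, 925 and 923 TPM in Chelator (log2 fold change -0.67 ± 0.07 SE, DESeq2 adjusted p = 5.5e-18). All DMSO libraries were above all Chelator libraries, and without the offset the change was -0.39. Its closest relatives share 61.9% of its words but held almost no counts: H2BC12L had 4.08 counts in 1 library and 0 in the others. H2BC11 fell alike, from 235, 241 and 221 TPM to 133, 152 and 162 TPM (log2 fold change -0.67 ± 0.09 SE, DESeq2 adjusted p = 3.9e-12). For H2BC4 the levels were 88.2, 109 and 91.9 TPM and then 62.6, 70.8 and 68.9 TPM (log2 fold change -0.54 ± 0.08 SE, DESeq2 adjusted p = 7.6e-10). Neither gene had overlapping groups.

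Of 16 H2B genes with an adjusted p, 4 fell, 1 rose and 11 did not pass, against 18.3% lower and 19.5% higher over all genes. Without the offset 4 fell and 2 rose, against 20.1% and 20.8%. H2BC21, which passed in the other direction, had 2505, 2242 and 2237 counts in DMSO and 3396, 3983 and 3431 counts in Chelator (log2 fold change 0.37 ± 0.08 SE, DESeq2 adjusted p = 5.5e-05, and 0.40 without the offset); it was named after its values were seen. Centred on the mean change it was 0.16 and did not pass (adjusted p = 0.256). Its annotated transcript is 2224 bases long, and the offset moved its value little. H2BC9 passed only without the offset (log2 fold change 1.04, called higher), with 47, 30 and 38 counts in DMSO and 81, 113 and 85 counts in Chelator, and was also named after its values were seen.

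H3 genes encode the subunit that carries many of the regulatory tail marks. H3C10 held 57.8% of the family's TPM, at 52.9, 58.7 and 53.4 TPM in DMSO and 30.8, 39.2 and 33.9 TPM in Chelator. It fell by 0.70 on the log2 scale (SE 0.09, DESeq2 adjusted p = 1.5e-12) with no overlap, and by 0.54 without the offset. H3C14 and H3C15 are the same sequence over 99.2% of the words of H3C14, and in each library most reads went to 1 of them. H3C15 had 454 counts in DMSO replicate 2, 271 in Chelator replicate 2 and 0 in the other 4 libraries. In DMSO replicate 2 and Chelator replicate 2 H3C14 had 37.5 and 47.6 counts. As a pair they had 515, 492 and 351 counts in DMSO and 310, 319 and 366 counts in Chelator. Their sum differed by -0.90 on the log2 scale in normalized counts and by -0.59 in CPM, both without overlap, a description with no test. H3C4 was at 8.01, 7.67 and 4.6 TPM and then at 2.38, 4.83 and 9.46 TPM, with overlap, and did not pass (DESeq2 adjusted p = 0.595). It shares 96.6% of its words with the readthrough gene named above. H3C2 was the other H3 gene that fell, at -0.67 ± 0.28 SE on the log2 scale (DESeq2 adjusted p = 0.0459), and at -0.40 it did not pass without the offset (adjusted p = 0.237).

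H4 genes encode the least variable core subunit. Here 7 of 11 genes with an adjusted p fell, 4 of them called, and 4 did not pass, while without the offset 4 fell, 2 of them called, and 1 rose. Over all genes 18.3% fell and 2.6% were called lower with the offset, and 20.1% and 2.46% without it. H4C14, the largest with 33.0% of the family's TPM, was at 97.8, 99.4 and 88.0 TPM in DMSO and 59.6, 56.1 and 53.0 TPM in Chelator (log2 fold change -0.79 ± 0.10 SE, DESeq2 adjusted p = 6.0e-14). Its copy H4C15, all of whose words it shares, fell too. The groups of H4C15 overlapped, at 14.2, 16.5 and 9.47 TPM in DMSO and 9.87, 8.98 and 9.04 TPM in Chelator. The 2 together differed by -0.70 on the log2 scale in normalized counts and by -0.46 in CPM, both without overlap. H4C8 was at 59.9, 70.1 and 59.7 TPM and then at 47.9, 54.5 and 56.9 TPM, and its fitted change of -0.28 ± 0.09 SE (log2, DESeq2 adjusted p = 0.00541) became 0.08 without the offset (adjusted p = 0.483). The direction of H4C8 therefore depends on the length term.

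The called H4 genes were short and of low level. H4C3 was at 6.94, 10.3 and 13.6 TPM in DMSO and 4.48, 5.13 and 5.24 TPM in Chelator, with no overlap and no shared words (log2 fold change -1.09 ± 0.32 SE, DESeq2 adjusted p = 0.00243), but at -0.70 it did not pass without the offset (adjusted p = 0.0566). H4C1, with 22, 13 and 32 counts in DMSO and 4, 8 and 4 counts in Chelator, was called at -2.75 ± 0.76 SE (DESeq2 adjusted p = 0.00123). H4C2 had 37, 43 and 21 counts in DMSO and 13, 16 and 14 counts in Chelator and was called at -1.89 ± 0.55 SE (DESeq2 adjusted p = 0.00219). Both were called on either scale, from few counts. H4C11 was called at -1.25 ± 0.44 SE (DESeq2 adjusted p = 0.0142), yet its groups overlapped, at 7.68, 7.78 and 21.6 TPM in DMSO and 4.96, 3.34 and 7.91 TPM in Chelator, and without DMSO replicate 3 it was -0.52 (adjusted p = 0.394). Without the offset H4C11 was at -0.83 and did not pass (adjusted p = 0.362). H4C12, with which it shares 92.5% of its words, was at 45.7, 54.6 and 29.3 TPM in DMSO and 45.7, 55.1 and 38.8 TPM in Chelator, lowest in the same DMSO library. It did not pass with the offset (log2 fold change 0.09, adjusted p = 0.772) and passed higher without it (0.53, adjusted p = 0.00342). Summed, the 2 genes had 755 ± 23.2 normalized counts in DMSO and 691 ± 66.6 in Chelator (SD, n = 3), with overlap between the groups. In CPM the pair was at 7.11 ± 0.0496 in DMSO and higher, at 9.30 ± 1.17, in Chelator (SD, n = 3), without overlap.

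**Figure D3:**
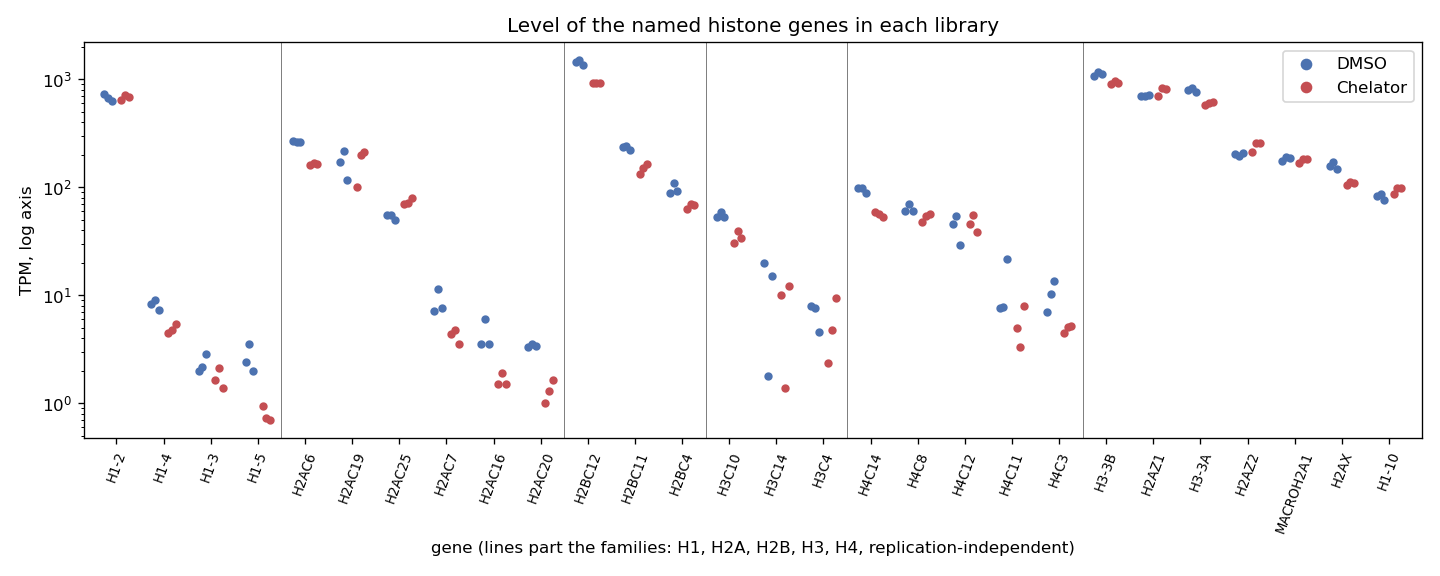
Level in TPM (log axis) of the named histone genes above 0.5 TPM in each of the 6 libraries, ordered by family and level; each point is a library. H2AC6, H2BC12, H3C10 and H4C14 are lower in every Chelator library, H2AC25 is higher, and H2AC19, H3C14 and H4C11, which share most of their sequence with a copy, spread widely within groups.

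Among the replication-independent genes, 3 of 9 with an adjusted p fell, none was called by DESeq2 or edgeR, 3 were lower and 2 higher at an unadjusted p under 0.05, and the median log2 fold change was -0.04. Over all genes 18.3% fell and 19.5% rose. Without the offset 4 fell and 2 rose (H2AZ1 and H1-10), with a median of -0.19, against 20.1% and 20.8% over all genes. Histone H3.3, which is laid down outside replication, is encoded by both H3-3A and H3-3B. H3-3A was at 787, 821 and 763 TPM in DMSO and 582, 598 and 612 TPM in Chelator (log2 fold change -0.44 ± 0.07 SE, DESeq2 adjusted p = 7.0e-09). H3-3B was at 1076, 1160 and 1123 TPM and then at 895, 957 and 931 TPM (log2 fold change -0.30 ± 0.07 SE, DESeq2 adjusted p = 6.0e-05, and -0.19 without the offset, adjusted p = 0.0119). Both H3.3 genes fell with no overlap, H3-3A hardly differently without the offset, at -0.43.

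H2AX, the variant phosphorylated at DNA breaks, also fell, from 157, 173 and 146 TPM to 106, 113 and 110 TPM (log2 fold change -0.56 ± 0.07 SE, DESeq2 adjusted p = 1.4e-16, and -0.49 without the offset). It had the largest fitted fall of the 9 tested replication-independent genes and is the one with a stem-loop. H2AZ1, the main H2A.Z gene, was at 700, 693 and 709 TPM in DMSO and 706, 834 and 806 TPM in Chelator and did not pass (log2 fold change 0.12 ± 0.09 SE, DESeq2 adjusted p = 0.295), but it passed higher without the offset (0.22, adjusted p = 0.0315). MACROH2A1, a variant with a large extra domain, was at 173, 189 and 186 TPM and then at 168, 182 and 184 TPM (log2 fold change -0.07 ± 0.07 SE, DESeq2 adjusted p = 0.525), and it passed lower when centred on the mean change (-0.28, adjusted p = 0.0153). The linker histone variant H1-10 was at 83.0, 87.4 and 76.4 TPM and then at 86.2, 99.1 and 98.0 TPM (log2 fold change 0.17 ± 0.08 SE, DESeq2 adjusted p = 0.0744). H1-10 passed higher without the offset (0.27, adjusted p = 0.00519) and lower once trends with GC content and length were taken out (-0.20, adjusted p = 0.00239). These 3 genes had overlapping groups in TPM. MACROH2A2 had 13.8 to 22.8 counts, and H2AJ had 7 counts in all and was not tested.

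In H2AZ2, the second H2A.Z gene, the transcripts changed more than the gene. Its level was 201, 195 and 209 TPM in DMSO and 212, 259 and 254 TPM in Chelator (log2 fold change 0.22 ± 0.10 SE, DESeq2 adjusted p = 0.0610), but its counts, which are not per length, fell by 0.22 without the offset (adjusted p = 0.00116). The share of its TPM on its 2 long transcripts, of 3804 and 3026 bases, was 33.0%, 42.0% and 33.4% in DMSO and 25.4%, 18.9% and 19.0% in Chelator. The share of the 628-base transcript H2AZ2-205 was 9.36%, 8.23% and 11.3% and then 21.1%, 32.1% and 32.7%. Neither share overlapped between groups. In the edgeR test of transcript usage, 16 members were among 11927 genes tested, and H2AZ2 alone was called (edgeR's Simes test, adjusted p = 1.22e-06, with a largest change of 19.0 percentage points), against 9.23% of all genes. H3-3B came next and did not pass (adjusted p = 0.0610 by the same edgeR test). Its transcript H3-3B-212, named after its values were seen, had 998, 1021 and 908 counts in DMSO and 3726, 5038 and 3633 counts in Chelator. A shorter mean fragment can move reads between transcripts of different length in such estimates, and its part in these shares was not tested.

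**Figure D4:**
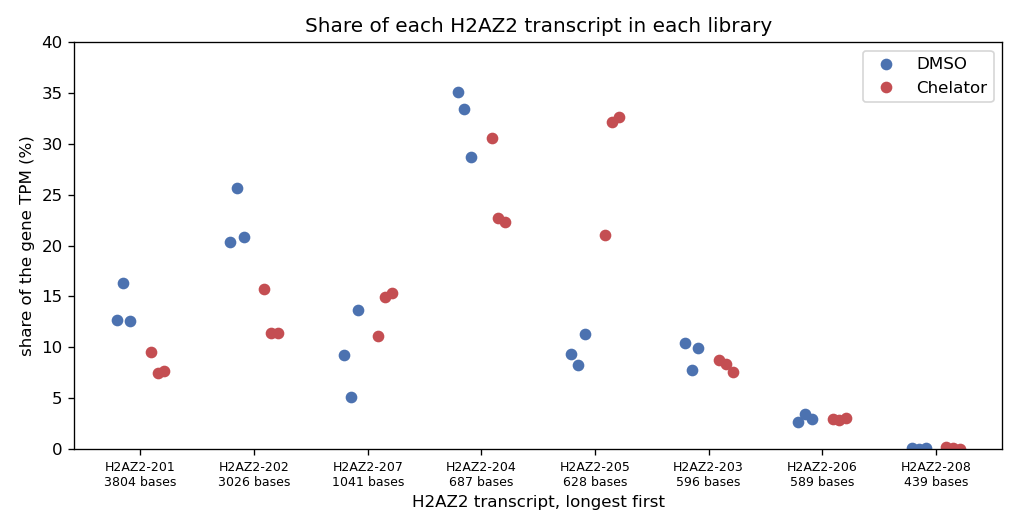
Share of the TPM of H2AZ2 (y axis, percent) on each of its 8 annotated transcripts, longest first; each point is a library. The shares of the 2 longest transcripts are lower and that of H2AZ2-205 is higher in all 3 Chelator libraries.

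In RNA selected for poly(A) tails, the 3′ end through which a histone mRNA was captured is of interest, but only annotated ends could be read here. A gene with 1 annotated transcript, such as H1-2 or H2BC12, puts all its counts in the class of that transcript. The shares below therefore do not show where the captured RNA ended. The annotated transcripts of replication-dependent genes were sorted by their end: 61 end within 20 bases of the stem-loop, 16 run past it and 23 have no stem-loop. A poly(A) signal (AATAAA or ATTAAA in the last 50 bases) was present in 2, 12 and 7 of these. Transcripts annotated to end at the stem-loop held 75.3% ± 1.44 of the replication-dependent counts in DMSO and 76.5% ± 1.32 in Chelator (SD, n = 3). Those that run past it held 15.1% ± 0.864 and 15.3% ± 1.01, and those without it 9.59% ± 0.581 and 8.24% ± 0.339. The first 2 shares overlapped between groups and the last did not. In TPM these sets changed by -23.8%, -7.53% and -32.3%, and in CPM by -3.68%, -3.95% and -18.4%.

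Genes were sorted by the annotated end that held the largest share of their counts (for H2AC6 42.6% at the stem-loop and 37.9% past it). Of those with an adjusted p, 41 were of the stem-loop kind, 8 of the kind that runs past it and 7 without it. Of the 41 genes 16 fell, including all 9 called members, and none rose, with a median log2 fold change of -0.70, against 18.3% lower, 2.6% called lower and 19.5% higher over all genes. Of the 8 genes 4 fell and 2 rose, with a median of -0.27, and both genes that rose, H2AC25 and H2BC21, were of this kind. In H2AC25 the longer, 895-base transcript went from 1139, 1123 and 942 counts to 2114, 2788 and 2126 counts. The 510-base transcript that ends at the stem-loop went from 885, 641 and 698 to 1087, 1004 and 1254 counts. In TPM the longer was at 19.8, 23.8 and 18.6 and then at 33.6, 40.6 and 36.0. The shorter was at 35.6, 32.1 and 31.2 TPM and then at 37.0, 30.5 and 43.6 TPM, with overlap. H2AC25 was not called in the usage test. Of the 7 genes without the site 2 fell and none rose, with a median of -0.09. Without the offset 12, 3 and 2 genes of the 3 kinds fell, against 20.1% of all genes, and 2 (H2BC9 and H4C12), 2 and none rose, with medians of -0.43, 0.02 and 0.02. Most of these genes had counts on only 1 annotated transcript, so the kinds follow the annotation and the ends themselves were not observed. The 3 kinds differ also in length and level, and their difference was not tested.

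**Figure D5:**
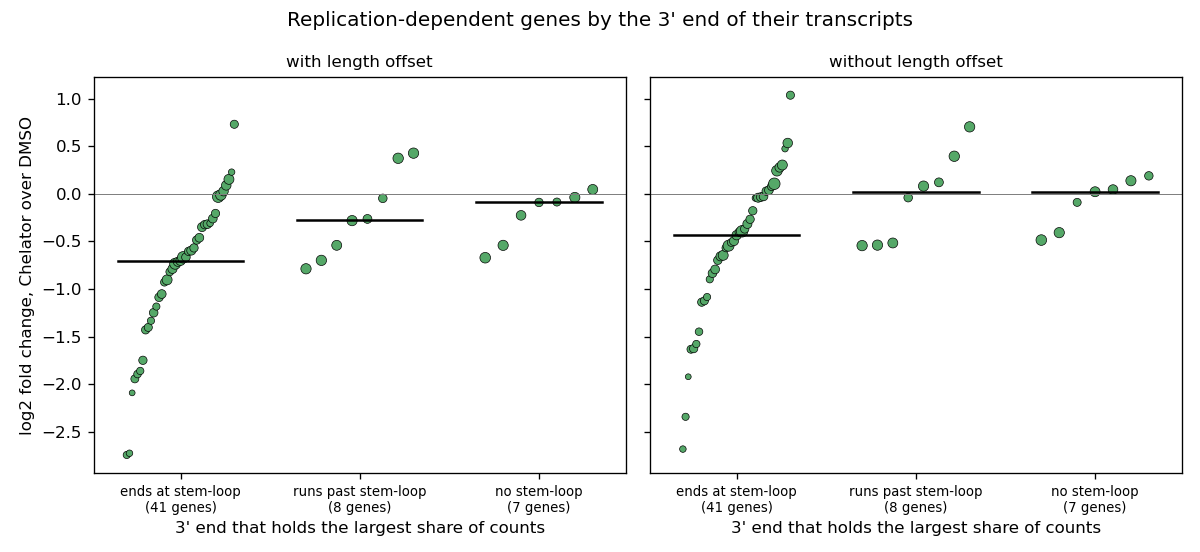
Log2 fold change (y axis) of the 56 replication-dependent genes with an adjusted p, from the fit with (left) and without (right) the length offset. Genes are sorted by the annotated 3′ end that held the largest share of their counts. Each point is a gene, larger for a higher mean count, and lines are medians. Genes ending at the stem-loop reach furthest down, and the 2 large points above 0 in the middle column of the left panel are H2BC21 and H2AC25.

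By position, 10 of 26 genes with an adjusted p in the first part of the large cluster on chromosome 6 fell and none rose (4 called), as did 9 of 17 in its second part (4 called), and 3 of 10 in the main cluster on chromosome 1 fell and 1 rose (1 called). Over all genes 18.3% fell and 2.6% were called lower. Without the offset 7 of 26 fell and 1 rose (2 called lower), 7 of 17 fell and 1 rose (3 called lower), and 3 of 10 fell and 1 rose (1 called lower), against 20.1% and 2.46% of all genes for lower and called lower. H2A and H2B genes often sit head to head and share a promoter region, and 12 such pairs lay 170 to 251 bases apart. Of 11 pairs in which both genes had an adjusted p, both fell in 2, and 1 fell while the other did not pass in 5. Neither passed in 2, 1 fell and the other rose in 1, and H2AC25 rose while H2BC26 did not pass. Without the offset H2AC17 did not pass (log2 fold change -0.32, DESeq2 adjusted p = 0.182), so its pair with H2BC17 had no passing gene. In the pair H2AC20 and H2BC21 the H2A gene was called lower at -1.40 while the H2B gene rose by 0.37, and in the pair H2AC12 and H2BC12 the changes were -1.95 and -0.67. Within each of these pairs the fitted changes lay apart, a difference that was not tested. Promoters were read as the RefSeq windows of 300 bases (GRCh38.p14), on both strands: TATAA was in 93.8% of 16 H2A, 94.4% of 18 H2B, 100% of 11 H3 and 84.6% of 13 H4 windows and in 20.4% of all 35116, and CCAAT in 100% of the H1, H2A, H2B and H3 windows, 23.1% of the H4 windows and 34.6% of all. The octamer-related motif TTTGCAT was in 68.8% of the H2A and 77.8% of the H2B windows, none of the 13 H4 windows and 4.46% of all.

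The genes that process, transcribe and place histones were read from 3 lists. The shares over all genes to set beside these counts are 18.3% lower and 19.5% higher with the offset, 20.1% and 20.8% without it, 26.8% and 11.9% centred on the mean change, and 18.9% and 20.1% once trends with GC content and length were taken out. Of 21 genes for 3′ end processing and decay of histone mRNA 11 fell and 1 rose, none was called by DESeq2 or edgeR (12 lower and 1 higher at an unadjusted p under 0.05), and the median log2 fold change was -0.19. Without the offset 14 fell and 1 rose, and centred 16 fell and none rose, with a median of -0.40. SLBP itself was at 81.7, 84.7 and 77.9 TPM in DMSO and 68.5, 74.5 and 76.7 TPM in Chelator (log2 fold change -0.19 ± 0.08 SE, DESeq2 adjusted p = 0.0464), close to the threshold, and it did not pass with TMM size factors (-0.14, adjusted p = 0.119). NPAT, the cyclin E/CDK2 substrate that activates histone gene transcription, fell from 10.1, 12.9 and 9.6 TPM to 8.34, 8.68 and 7.51 TPM (log2 fold change -0.43 ± 0.09 SE, DESeq2 adjusted p = 1.9e-05), but did not pass once trends with GC content and length were taken out (-0.14, adjusted p = 0.187). CASP8AP2, another histone locus protein, was at 11.73, 15.21 and 12.03 TPM in DMSO and 11.06, 11.38 and 12.01 TPM in Chelator, with overlap. Its fitted change was -0.20 (DESeq2 adjusted p = 0.0393), -0.36 without the offset (adjusted p = 1.1e-04) and 0.11 once trends with GC content and length were taken out (adjusted p = 0.325), so its direction depends on these terms. Of the 15 genes of the histone locus and transcription list 5 fell and 5 rose, with a median of -0.07, and 6 fell and 4 rose without the offset. The balance turned with the scaling: centred on the mean change 8 fell and 2 rose, with a median of -0.28, and once the trends were taken out 2 fell and 4 rose, with a median of 0.03. HBP1, a transcriptional repressor, was called higher, from 10.1, 12.9 and 9.32 TPM to 25.6, 24.8 and 25.0 TPM (log2 fold change 1.20 ± 0.09 SE, DESeq2 adjusted p = 2.2e-35). Centred on the mean change HBP1 was at 0.99 and so just under the fold threshold (adjusted p = 4.2e-19).

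Of 34 histone chaperone and nucleosome exchange genes 17 fell and 4 rose, with a median of -0.24, and without the offset 21 fell and 3 rose, with a median of -0.27. Centred on the mean change 25 fell and 1 rose, with a median of -0.45. The importin IPO4, which carries H3 and H4 into the nucleus, was called lower, from 73.3, 92.5 and 98.4 TPM to 37.1, 35.2 and 38.6 TPM (log2 fold change -1.28 ± 0.10 SE, DESeq2 adjusted p = 8.6e-33). NASP, which guards the soluble H3 and H4 pool, was at 362, 380 and 348 TPM in DMSO and 321, 316 and 302 TPM in Chelator. It fell by 0.25 (DESeq2 adjusted p = 0.00319) but at -0.14 did not pass without the offset (adjusted p = 0.0750). ASF1B, which hands H3 and H4 to the assembly factors, rose by 0.26 (DESeq2 adjusted p = 0.00370), from 66.4, 66.9 and 62.9 TPM to 78.3, 81.2 and 81.3 TPM, and was at 0.05 and did not pass when centred on the mean change (adjusted p = 0.763). CHAF1A, the large subunit of the assembly factor CAF-1, was at 59.7, 68.0 and 61.7 TPM in DMSO and 58.1, 65.8 and 67.8 TPM in Chelator. It did not pass (-0.01, adjusted p = 0.919), and passed lower without the offset (-0.18, adjusted p = 0.0122) and centred on the mean change (-0.23, adjusted p = 0.0458). CENPA, the centromeric H3 variant, was at 26.1, 26.9 and 24.1 TPM and then at 25.2, 25.8 and 25.0 TPM and did not pass (-0.05, adjusted p = 0.713, and -0.03 without the offset), and it passed lower when centred (-0.26, adjusted p = 0.0482). Named after its values were seen, the nucleolar chaperone NPM1 passed in opposite directions in the 2 fits, at 0.39 with the offset (adjusted p = 7.2e-05) and -0.35 without it (adjusted p = 1.7e-06). As markers of the phase in which histones are made, 6 of 14 S phase genes fell and 3 rose, with a median of -0.10, and 3 of 10 genes of G2 and M phase fell and 2 rose, with a median of -0.01. Without the offset 9 S phase genes fell and 1 rose, with a median of -0.19, and 3 G2 and M phase genes fell and 1 rose, with a median of -0.02. Centred on the mean change 10 S phase genes fell and 1 rose, with a median of -0.31, and 5 G2 and M phase genes fell and none rose, with a median of -0.22. No marker of either list was called by DESeq2 or edgeR, and at an unadjusted p under 0.05, 6 and 4 were lower and 3 and 2 higher. Whether the share of cells in S phase differed was not measured here, and in bulk RNA fewer cells in a phase and less RNA per cell cannot be told apart.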

How the data were processed

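PolyA-selected RNA of 6 K562 libraries (3 DMSO, 3 Chelator) was measured. Per the labels, the authors ran FastQC and MultiQC, quantified transcripts with Salmon 1.10.2 and tested genes with DESeq2 (version given as 3.19); STAR 2.7.11b and build hg38 are also named. The deposited files give, per transcript, an estimated count that need not be whole, the TPM the authors derived from it, and the length and effective length in bases. The annotation and any bias correction are not given in the sources used here.

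Transcripts were matched to GENCODE release 44 (GRCh38) by identifier, and 433 of 252045 found no match. Estimated counts were summed per gene and rounded. The TPM-weighted effective length was used as an offset in DESeq2 1.42.0 (R 4.3.3, Wald test, genes with a total above 10, Benjamini-Hochberg adjustment over all genes). Normalized counts are divided by size factor and offset. Transcript usage was tested with edgeR 4.0.16 (diffSpliceDGE) on transcripts that reached 10 counts in 3 or more libraries. In simulated data, changes of 2 or 1.5 on the log2 scale were planted only in genes with at least 50 mean normalized counts. The gene test called 97% and 91% of these, with 21 false calls. Smaller changes and genes of lower count, such as H4C1, H4C2 and H2AC12, were not covered. With 78.6 M to 101 M counts per library, genes under about 100 counts carry wide errors, as their SE shows.

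Named, nearly all with values in every library and a few low or copied genes by range or pair sum, were the replication-independent members (1 item is not reported here), the 3 genes of highest mean TPM in each replication-dependent family, called members with at least 50 mean normalized counts, and of the supply genes SLBP, NPAT, CASP8AP2, NASP, ASF1B, CHAF1A, CENPA and called genes with at least 100; others are given by counts or were named after their values were seen. Words of 31 bases shared between expressed genes show where reads can be split. The members and lists were chosen with earlier results of these data known. Alternatives were no offset, TMM, edgeR quasi-likelihood, other filters, centring, GC content and length trends removed, limma 3.58.1 on log2(TPM + 1), a replicate block and leaving out each library; edgeR without the offset was added after seeing the data.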

Additional observations from a re-analysis of the deposited data

How the results depend on the processing

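The 9 called histone genes were 9 with TMM size factors or no filter, 8 with edgeR quasi-likelihood, 7 without the length offset (6 of the 9 and H2BC9 higher), 7 with edgeR without the offset, 10 where genes had to reach 10 counts in 3 libraries, 11 centred on the mean change, 12 after removing trends with GC content and length, 5 with limma on log2(TPM + 1), 8 with a pseudocount of 0.1 and 27 with no fold threshold. Leaving out 1 library gave 7 to 9, the lowest without DMSO replicate 3. The 2 called supply genes were 3 after centring (all lower, as HBP1 at 0.99 was under the fold threshold) and 43 with no fold threshold. For transcript usage, 4 members were called by limma diffSplice, 2 where transcripts had to reach 30 counts in 3 libraries, and 1 to 2 with 1 library left out (2 without DMSO replicate 3). With the replicate block 9 histone genes were called, the same 9; libraries of the same number correlated at -0.068, 0.137 and 0.109 over 13515 genes, so the numbers were not read as pairs, and H3C14 alone of the named genes passed with the block and not without it (-0.62, adjusted p = 0.0432).

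The log2 fold change of H4C8 turned to 0.0816 without the offset and 0.11 with edgeR without it, that of H2AZ2 to -0.22 and -0.19, and that of H1-10 to -0.20 (adjusted p = 0.00239) once trends with GC content and length were taken out. The fold changes of the family sums on the log2 scale without a length term were 0.17 for H1, -0.05 for H2A, -0.22 for H2B, -0.43 for H3, -0.16 for H4 and -0.08 for all replication-dependent and replication-independent genes each. Beyond the length offset, the causes were not tested. The fold change of CASP8AP2 turned to 0.11 once those trends were taken out. Of 662 values of 39 named histone and supply genes under alternatives, 551 kept direction and side of the threshold.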

Other observations

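The naming rule leaves out 15 protein-coding histone genes, most of them known from testis. Of these 4 were at 0 in every library and 6 had a total above 10 counts. The highest was the centromeric variant CENPA, with 1765 to 2507 counts. H3-7 had 189, 219 and 175 counts in DMSO and 260, 341 and 261 counts in Chelator (log2 fold change 0.32 ± 0.19 SE, DESeq2 adjusted p = 0.177) and shares sequence with H3C13, so its reads may belong to either. The testis variants H2AB2, H2BK1, H2BW1 and H2BW2 did not exceed 19 counts in any library. Chosen for this paragraph after their values were seen, these genes enter no comparison above except CENPA, which is counted and named among the chaperone and exchange genes.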
